A study of Homo sapiens with 6 samples.

Results

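The RAB small GTPases are the genes described here. Members are the protein-coding genes of GENCODE release 29 whose symbol is RAB followed by a number and, where present, a letter. There were 63 of them among 19969 protein-coding genes and 58780 genes in all. RNA-seq was run on HCT116, a human colorectal carcinoma cell line, in 2 groups of 3 biological replicates each: cells treated with auxin for 16 h, and a DMSO control, DMSO being the usual solvent. Auxin, a plant hormone, is widely used in human cells to have a degron-tagged protein broken down. The labels name neither the protein that auxin acts on nor any allele or clone, so what the groups share beyond the cell line is not given in the sources used here. No source says whether the replicates were separate cultures, so the p-values measure the spread between these samples.

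RAB proteins are molecular switches of membrane traffic. A guanine nucleotide exchange factor (GEF) loads a RAB with GTP, and the loaded form sits on a membrane and recruits effectors such as tethers, motors and coats. A GTPase-activating protein (GAP), most often of the TBC family, returns the switch to the GDP form, which a GDP dissociation inhibitor (GDI) extracts from the membrane. Escort proteins and a prenyl transferase add the lipid anchor. Different RABs mark different compartments, and vertebrates carry several near-copies (paralogs) of many of them.

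Paralogs code for very similar proteins with different codons, and the coding sequence around the phosphate-binding loop shows it. These stretches of 60 bases are from GENCODE 29 transcripts on GRCh38, and capitals mark a G or C at the third position of a codon. They are shown because the comparisons below set paralogs of different base composition side by side.
RAB4A, chr1:229286494-229286553, plus strand: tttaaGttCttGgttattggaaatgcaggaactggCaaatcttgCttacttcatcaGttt
RAB4B, chr19:40780027-40780086, plus strand: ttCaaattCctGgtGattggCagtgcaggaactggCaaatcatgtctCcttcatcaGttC
RAB1A, chr2:65104737-65104796, minus strand: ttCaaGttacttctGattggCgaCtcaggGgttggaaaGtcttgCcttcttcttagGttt
RAB1B, chr11:66271807-66271866, plus strand: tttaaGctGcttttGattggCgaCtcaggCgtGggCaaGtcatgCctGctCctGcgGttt
RAB5A, chr3:19950959-19951018, plus strand: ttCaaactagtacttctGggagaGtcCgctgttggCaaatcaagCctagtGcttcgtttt
RAB5B, chr12:55987021-55987080, plus strand: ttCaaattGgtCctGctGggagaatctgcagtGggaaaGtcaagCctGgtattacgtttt
RAB5C, chr17:42130380-42130439, minus strand: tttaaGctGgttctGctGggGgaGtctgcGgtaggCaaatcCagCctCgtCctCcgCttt
The stretch holds 6 such codons in RAB4A and 9 in RAB4B, 9 in RAB1A and 14 in RAB1B, and 7, 9 and 14 in RAB5A, RAB5B and RAB5C. Over the whole coding sequence, G or C stands at the third codon position in 42.7% of codons of RAB4A and 74.6% of RAB4B. The same measure is 41.5% in RAB1A and 76.1% in RAB1B, and 30.2%, 57.7% and 65.7% in RAB5A, RAB5B and RAB5C.

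Expected counts, which are estimated reads per gene, summed to between 234037969 and 625895062 per library, and replicate 1 was the deepest in both groups. The RAB genes together took 0.423% of the normalised counts on average. Of the epithelial markers, EPCAM, CDH1, KRT8, KRT18 and KRT19 were between 36.5 and 982 TPM (transcript abundance scaled by length, so comparable between genes) in every library, whereas VIL1 and CEACAM5 were at most 0.02 TPM. The leukocyte markers PTPRC and CD3E were at 0 in every library. CD68, a lysosomal protein that is also used as a macrophage marker, was between 39.5 and 65.7 TPM in DMSO and between 10.7 and 19.1 TPM in auxin. The summed fibroblast markers were between 1.32 and 2.78 TPM in DMSO and between 0.62 and 1.51 TPM in auxin, and the endothelial markers reached at most 0.08 TPM. Their part in the RAB results was not tested.

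After auxin, RAB genes moved both ways. Of the 63 members, 52 passed the filter on low counts, and of these 13 rose, 16 fell and 23 did not pass an adjusted p of 0.05. The largest falls were in low-level genes: RAB24, RAB37 and RAB26 fell 5.54-fold, 5.50-fold and 5.09-fold. Among genes of at least 1 CPM (CPM being counts scaled to library size and composition), RAB4B, RAB36 and RAB15 followed. The rises were smaller, with RAB31, RAB3B, RAB27B, RAB4A and RAB10 between 1.37-fold and 1.68-fold higher, and RAB7B, a gene under 1 CPM, 2.66-fold higher.

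These shares were near those of other genes. Higher calls made up 25.0% of the tested RAB genes, against 27.8% of tested protein-coding genes and 25.4% of all tested genes. Lower calls made up 30.8%, against 33.4% of protein-coding genes and 26.9% of all. The median log2 fold change was -0.08 over the RAB genes and -0.01 over protein-coding genes. A fall of at least 2-fold was called in 6 RAB genes, or 11.5%, where 16.0% of protein-coding genes had one, and a rise of that size in 1, where 4.80% had one. The CPM of the groups did not overlap in 35 of the 52 genes, or 67.3%, against 68.1% of protein-coding genes.

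The number of higher calls differed between fits. With the replicate number as a block, the counts were 20 higher and 23 lower. Upper-quartile scaling, which moved the median of all genes by 0.12 on the log2 scale, gave 19 higher and 13 lower. Fits on log2 TPM, which used limma in place of edgeR and moved that median by -0.14 or -0.15 depending on the pseudocount, called 0 higher and 11 or 12 lower. No RAB gene called both in edgeR and in one of these fits changed direction between them. Leaving out any single library left 24 of the 29 calls in place. The calls of RAB12 and RAB8A were lost whichever of the 6 libraries was left out, with adjusted p up to 0.11 and 0.22. That of RAB1A was lost in all but the fit without auxin replicate 1 (up to 0.12). RAB28 was lost without DMSO replicate 2 or 3 or auxin replicate 1 or 3 (up to 0.11), and RAB21 without DMSO replicate 1 or 2 or auxin replicate 2 or 3 (up to 0.10).

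**Figure D1:**
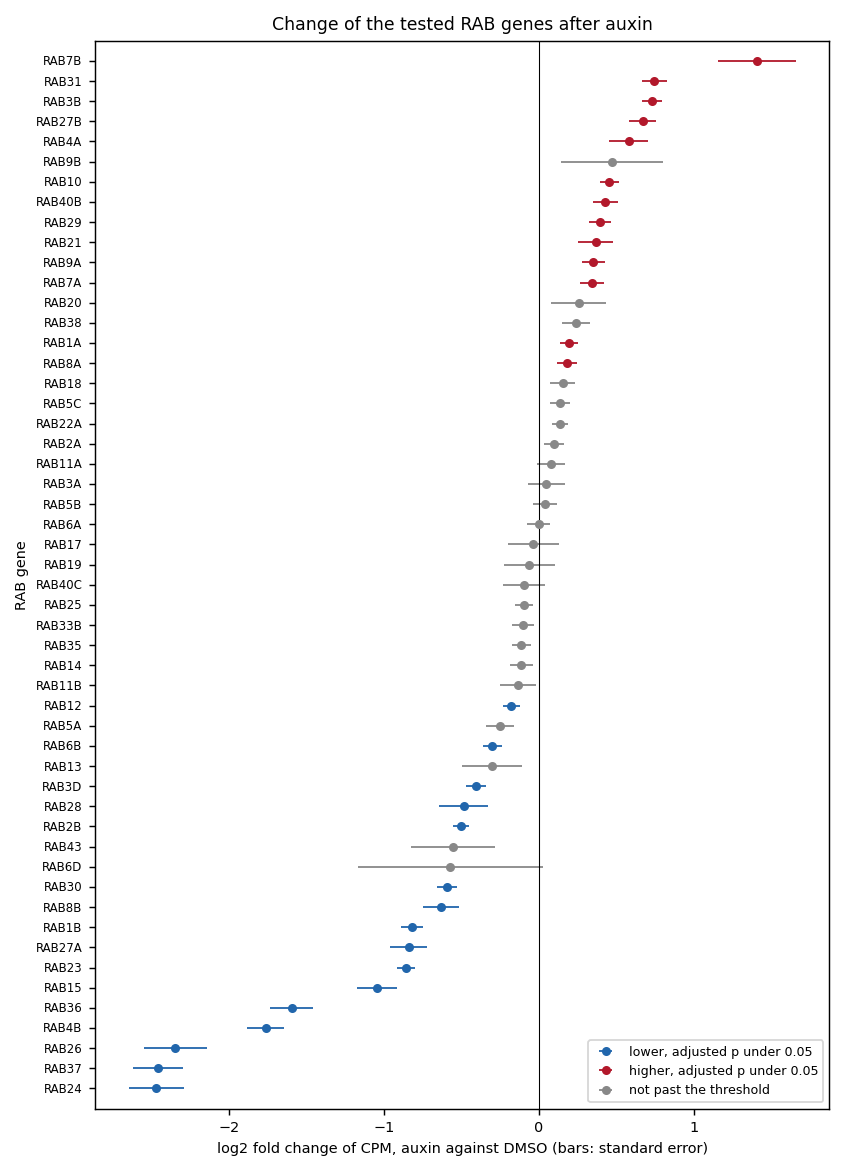
Log2 fold change of CPM, auxin against DMSO (x axis), for each of the 52 tested RAB genes (y axis), with bars for the standard error and colours for the edgeR call at an adjusted p of 0.05. The 16 lower genes reach -2.47 (RAB24), the 13 higher ones reach 1.41 (RAB7B), and 23 did not pass.

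By level, RAB7A, RAB11A, RAB10, RAB5C and RAB1A headed the family and together held 44.5% of its summed TPM. RAB7A, which directs late endosomes to lysosomes, was at 301.7, 222 and 212 TPM in the DMSO libraries and 292, 229 and 297 TPM in auxin. RAB11A, of the recycling endosome, was at 297, 226 and 235 TPM in DMSO and 252, 228 and 232 TPM in auxin. These neighbours overlapped in both groups, so their order is within the spread. The summed TPM of the family was 2308, 1691 and 1754 in DMSO and 1986, 1684 and 1871 in auxin, so the groups overlapped (two-sided exact permutation test, p = 0.8, where 3 against 3 cannot go below 0.1). Summed CPM, which weights long transcripts more, was 3911 ± 119.6 (SD, n = 3) in DMSO and 4545 ± 179 (SD, n = 3) in auxin, without overlap (exact permutation p = 0.1). Most of that difference lay in RAB3B (mean 538 CPM in DMSO and 893 in auxin), RAB10 (403 and 553) and RAB7A (315 and 399). It is not a rise of the whole family, in which 13 genes were called higher and 16 lower. In bulk RNA, fewer cells that express a gene and less RNA per cell cannot be told apart.

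Among the 19 RABs of the early secretory pathway and Golgi, 13 were tested, and 1 rose while 5 fell. Of tested protein-coding genes 27.8% were called higher and 33.4% lower. The classes, here and below, are small and were not tested against these shares, so no pattern by compartment is read from them. RAB1A and RAB1B both act in transport from the endoplasmic reticulum to the Golgi, and they moved in opposite directions. RAB1B (ENSG00000174903.15, chr11:66268533-66277492, plus strand) was at 118, 109 and 108 CPM in DMSO and 68.2, 59.2 and 62.5 CPM in auxin. The groups were far apart, with a log2 fold change of -0.82 ± 0.07 (SE) and an adjusted p of 8.9e-05. RAB1A (ENSG00000138069.17, chr2:65070696-65130331, minus strand) was at 171, 176 and 183 CPM in DMSO and 194, 208 and 205 CPM in auxin. That rise was small, 0.20 ± 0.06 (SE, adjusted p = 0.027), and on log2 TPM it was 0.00 with an adjusted p near 1. With fold changes corrected for GC content, RAB1B was at -0.16 (adjusted p = 0.067) and RAB1A at 0.07 (adjusted p = 0.33), so neither remained called. With the block added to that correction RAB1B was again called, at -0.16 with an adjusted p of 0.001, and RAB1A was not (adjusted p = 0.14).

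RAB2B, a Golgi RAB, was at 39.0, 41.3 and 39.8 CPM in DMSO and 28.1, 28.2 and 28.4 CPM in auxin, a tight fall of 0.50 on the log2 scale (SE 0.05, adjusted p = 0.00021). Its paralog RAB2A was at 142, 154 and 155 CPM in DMSO and 152, 169.6 and 161 CPM in auxin, and was not called (0.10 ± 0.07 SE, adjusted p = 0.25, or 0.017 with the replicate block). RAB6A, which acts in retrograde Golgi traffic, was at 181, 206 and 202 CPM in DMSO and 188, 207 and 194 CPM in auxin, with a log2 fold change of 0.00 ± 0.07 (SE). RAB6B, the paralog known best from neurons, was at 16.1, 16.2 and 16.1 CPM in DMSO and 13.4, 13.0 and 12.9 CPM in auxin, and fell by 0.30 (SE 0.06, adjusted p = 0.006).

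RAB36 (chr22:23145326-23164350, plus strand), a Golgi RAB linked to the positioning of late endosomes and lysosomes, fell most in this class. It was at 10.6, 7.98 and 9.41 CPM in DMSO and 3.32, 2.72 and 3.23 CPM in auxin (-1.59 ± 0.14 SE, adjusted p = 9.2e-05). RAB30, a Golgi RAB, also fell, by 0.59 on the log2 scale (SE 0.07, adjusted p = 0.00029). RAB43 shares 3956 exonic bases with the readthrough gene ISY1-RAB43, and its posterior SD reached 18.8% of its count. Alone it was not called (-0.55 ± 0.27 SE, adjusted p = 0.13, or 0.011 with the block). Added to the readthrough entry it was at 10.6, 11.7 and 10.4 CPM in DMSO and 8.83, 8.65 and 8.05 CPM in auxin. RAB18 was not called (0.15, adjusted p = 0.17, or 0.002 with the block). RAB19, RAB33B and RAB6D were not called with or without the block, and RAB6D, a near-copy of RAB6A, was under 0.06 CPM in every library.

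All 7 early endosome RABs were tested, of which 2 rose, 1 fell and 4 were not called. RAB5 drives fusion of early endosomes, and its 3 paralogs did not move together. RAB5A (ENSG00000144566.10, chr3:19947079-19985175, plus strand) was at 117, 133 and 137 CPM in DMSO and 97.7, 112 and 116 CPM in auxin. The groups did not overlap, but only just, and the log2 fold change of -0.25 ± 0.09 (SE) had an adjusted p of 0.0501, just short of the threshold. With the replicate block the adjusted p was 5.5e-05. RAB5B (ENSG00000111540.15, chr12:55973913-55996683, plus strand) was at 55.6, 60.3 and 51.8 CPM in DMSO and 60.6, 58.8 and 53.0 CPM in auxin, with full overlap (0.04 ± 0.08 SE, adjusted p = 0.7). RAB5C (ENSG00000108774.14, chr17:42124976-42155044, minus strand) was at 158, 153 and 158 CPM in DMSO and 168, 163 and 185 CPM in auxin. Its auxin libraries all lay above the DMSO ones, at 0.14 ± 0.06 (SE, adjusted p = 0.11, or 0.009 with the replicate block). RAB5C shares 794 exonic bases with AC099811.2 on the same strand.

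The balance of the RAB5 genes was also read from TPM ratios, which need no scaling between libraries. The log2 ratio of RAB5A to RAB5C was -0.61, -0.29 and -0.34 in DMSO and -1.02, -0.69 and -0.72 in auxin. The groups did not overlap, and the ratio dropped by 0.41, 0.40 and 0.39 within the same-numbered pairs (two-sided exact permutation p = 0.1, adjusted p = 0.14 over 17 paralog pairs; sign-flip p over the pairs 0.25). Both p-values before adjustment are the smallest these designs allow. RAB5A to RAB5B went from a mean of 1.96 to 1.68, with overlap (exact permutation p = 0.5). RAB5B to RAB5C went from -2.37 to -2.49, also with overlap (exact permutation p = 0.6).

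RAB31, which works between the Golgi and endosomes, rose most among genes of at least 1 CPM. It (chr18:9708165-9862551, plus strand) was at 81.7, 91.3 and 90.7 CPM in DMSO and 133, 156 and 154 CPM in auxin (0.75 ± 0.08 SE, adjusted p = 0.00026). Its close relative RAB22A was at 65.0, 68.5 and 67.6 CPM in DMSO and 71.1, 76.6 and 73.8 CPM in auxin, without overlap but not called (0.14 ± 0.05 SE, adjusted p = 0.06, or 0.0013 with the block). RAB21, which traffics integrins, rose by a log2 of 0.37 ± 0.11 (SE, adjusted p = 0.031). RAB24, linked to autophagy, was at 0.521, 0.468 and 0.464 CPM in DMSO and 0.0913, 0.0879 and 0.0813 CPM in auxin (-2.47 ± 0.18 SE, adjusted p = 3.9e-05). It shares 926 exonic bases with MXD3 on the same strand, and MXD3 itself fell by 0.83 on the log2 scale (adjusted p = 0.012).

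All 14 RABs of recycling and exocytic traffic were tested, of which 3 rose, 4 fell and 7 were not called. RAB4A and RAB4B, which return cargo quickly from early endosomes to the surface, parted most among the paralogs with both members at 1 CPM or more in DMSO. RAB4B (ENSG00000167578.17, chr19:40778216-40796938, plus strand) was at 3.29, 3.83 and 3.31 CPM in DMSO and 1.03, 1.07 and 0.971 CPM in auxin. That is a 3.40-fold fall (-1.76 ± 0.12 SE, adjusted p = 3.1e-05). RAB4A (ENSG00000168118.11, chr1:229271062-229305894, plus strand) was at 30.8, 39.1 and 40.1 CPM in DMSO and 47.7, 59.9 and 57.2 CPM in auxin, a 1.5-fold rise (0.58 ± 0.13 SE, adjusted p = 0.0067). The log2 TPM ratio of RAB4A to RAB4B was 2.00, 2.10 and 2.31 in DMSO and 4.42, 4.57 and 4.65 in auxin. RAB4B shares exonic bases with the readthrough genes MIA-RAB4B and RAB4B-EGLN2, which were at most 0.242 CPM in any library. RAB4A shares 648 exonic bases with SPHAR on the same strand, and the level of SPHAR is not given here.

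RAB8A and RAB8B deliver cargo to the plasma membrane and to cilia. RAB8B was at 34.3, 44.7 and 41.3 CPM in DMSO and 23.6, 28.8 and 25.3 CPM in auxin, and fell by 0.63 on the log2 scale (SE 0.12, adjusted p = 0.0033). RAB8A was at 134, 128 and 139.8 CPM in DMSO and 151, 145 and 160.1 CPM in auxin. Its rise of 0.18 ± 0.06 (SE) only just passed, with an adjusted p of 0.047, and on log2 TPM its value was -0.01. The ratio of RAB8A to RAB8B overlapped between groups, yet it rose by 0.82, 0.78 and 0.77 within the same-numbered pairs.

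RAB10, which carries exocytic vesicles, was at 395, 407 and 406 CPM in DMSO and 526, 555 and 578 CPM in auxin (0.46 ± 0.06 SE, adjusted p = 0.00074). RAB15 (chr14:64945814-64973226, minus strand), of the endocytic recycling route, was at 13.6, 11.4 and 12.4 CPM in DMSO and 6.68, 5.05 and 6.32 CPM in auxin (-1.05 ± 0.13 SE, adjusted p = 0.00046). RAB12 fell slightly, by 0.18 on the log2 scale (SE 0.05, adjusted p = 0.029).

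RAB11A was at 206, 239.6 and 236 CPM in DMSO and 219.9, 257 and 242 CPM in auxin, and RAB11B was at 63.9, 52.6 and 52.5 CPM in DMSO and 58.2, 45.7 and 50.2 CPM in auxin. Neither was called, at 0.08 ± 0.09 and -0.13 ± 0.11 (SE), but with the block both were, with adjusted p of 0.042 and 0.0071. RAB11B, with 63.5% GC, was lower in auxin in every same-numbered pair. Corrected for GC content, which sets it against genes of like GC, it was at 0.57 with an adjusted p of 6.2e-05. RAB13 (-0.30), RAB14 (-0.11), RAB25 (-0.09), an epithelial relative of RAB11, and RAB35 (-0.11) were not called. With the block all 4 were called lower, with adjusted p of 0.00065, 0.016, 0.013 and 0.005. RAB17 was called in neither fit. RAB13 shares 682 exonic bases with AL358472.6 on the same strand.

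Of the 10 RABs of late endosomes, lysosomes and lysosome-related organelles, 9 were tested, and 5 rose while 1 fell. The shares over tested protein-coding genes were 27.8% higher and 33.4% lower. RAB7A was at 298, 329.8 and 317 CPM in DMSO and 370.5, 399.6 and 428 CPM in auxin, a rise of 0.34 ± 0.08 (SE, adjusted p = 0.0075). Corrected for GC content it was 0.16 and not called (adjusted p = 0.096, or 0.0053 with the block added). RAB7B was at 0.387, 0.216 and 0.295 CPM in DMSO and 0.942, 0.665 and 0.795 CPM in auxin (1.41 ± 0.25 SE, adjusted p = 0.0027). RAB9A, which recycles receptors from late endosomes to the Golgi, was at 22.3, 22.7 and 25.0 CPM in DMSO and 27.8, 30.8 and 30.8 CPM in auxin (0.35 ± 0.07 SE, adjusted p = 0.006). RAB9B was at most 0.132 CPM in any library and was not called (adjusted p = 0.27). RAB29, a partner of the kinase LRRK2, rose by a log2 of 0.39 ± 0.07 (SE, adjusted p = 0.0025).

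RAB27A and RAB27B both serve secretion of lysosome-related organelles and exosomes, and they moved in opposite directions. RAB27A was at 19.7, 23.2 and 24.6 CPM in DMSO and 10.9, 13.4 and 13.4 CPM in auxin (-0.84 ± 0.12 SE, adjusted p = 0.00091). RAB27B was at 16.9, 18.3 and 15.9 CPM in DMSO and 28.8, 28.3 and 24.4 CPM in auxin (0.67 ± 0.09 SE, adjusted p = 0.0007). Per length, the log2 TPM ratio of RAB27A to RAB27B was 1.66, 2.17 and 2.33 in DMSO and -0.12, 0.70 and 0.77 in auxin. It dropped by 1.78, 1.47 and 1.56 within the same-numbered pairs.

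Of the 6 RABs of regulated secretion, 5 were tested, and 1 rose while 3 fell, beside shares of 27.8% and 33.4% over tested protein-coding genes. RAB3 proteins act on vesicles that await a signal to fuse. RAB3B (chr1:51907956-51990764, minus strand) was at 547, 554 and 512 CPM in DMSO and 869, 929 and 883 CPM in auxin (0.73 ± 0.07 SE, adjusted p = 9.8e-05). RAB3D was at 23.3, 25.5 and 23.8 CPM in DMSO and 18.5, 18.5 and 17.9 CPM in auxin, and fell by 0.41 (SE 0.06, adjusted p = 0.0015). RAB3A was at 8.74, 10.8 and 8.16 CPM in DMSO and 9.27, 10.0 and 9.33 CPM in auxin, and was not called (0.05 ± 0.12 SE, adjusted p = 0.75).

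RAB37 (chr17:74670578-74747335, plus strand), of secretory granules, was at 3.73, 3.93 and 3.12 CPM in DMSO and 0.692, 0.716 and 0.546 CPM in auxin (-2.46 ± 0.16 SE, adjusted p = 2.6e-05). RAB26, also of secretory granules, was at 0.847, 0.901 and 0.678 CPM in DMSO and 0.184, 0.151 and 0.135 CPM in auxin (-2.35 ± 0.20 SE, adjusted p = 8.3e-05). Of the 7 members placed elsewhere, 4 were tested. RAB23 (chr6:57186992-57222314, minus strand), which restrains Hedgehog signalling, was at 50.1, 47.8 and 50.8 CPM in DMSO and 27.7, 28.2 and 26.2 CPM in auxin (-0.86 ± 0.06 SE, adjusted p = 3e-05). Its exons share 2842 bases with BAG2 on the opposite strand, and no source used here says whether counting used the strand. RAB28, a ciliary RAB, fell by 0.48 (SE 0.16, adjusted p = 0.038).

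RAB40B, of the family that joins a ubiquitin ligase, was at 5.28, 5.34 and 5.27 CPM in DMSO and 7.18, 7.28 and 6.94 CPM in auxin (0.43 ± 0.08 SE, adjusted p = 0.0034). RAB40C was at 7.11, 6.33 and 5.96 CPM in DMSO and 7.13, 5.34 and 5.72 CPM in auxin, and was not called (-0.09 ± 0.14 SE, adjusted p = 0.6). RAB20 (0.26) and RAB38 (0.24) were not called, with adjusted p of 0.27 and 0.055, but with the block both were called higher (0.009 and 0.00069). The 11 members that did not pass the filter were RAB3C, RAB6C, RAB32, RAB33A, RAB34, RAB39A, RAB39B, RAB40A, RAB41, RAB42 and RAB44. None exceeded 0.06 TPM in any library.

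**Figure D2:**
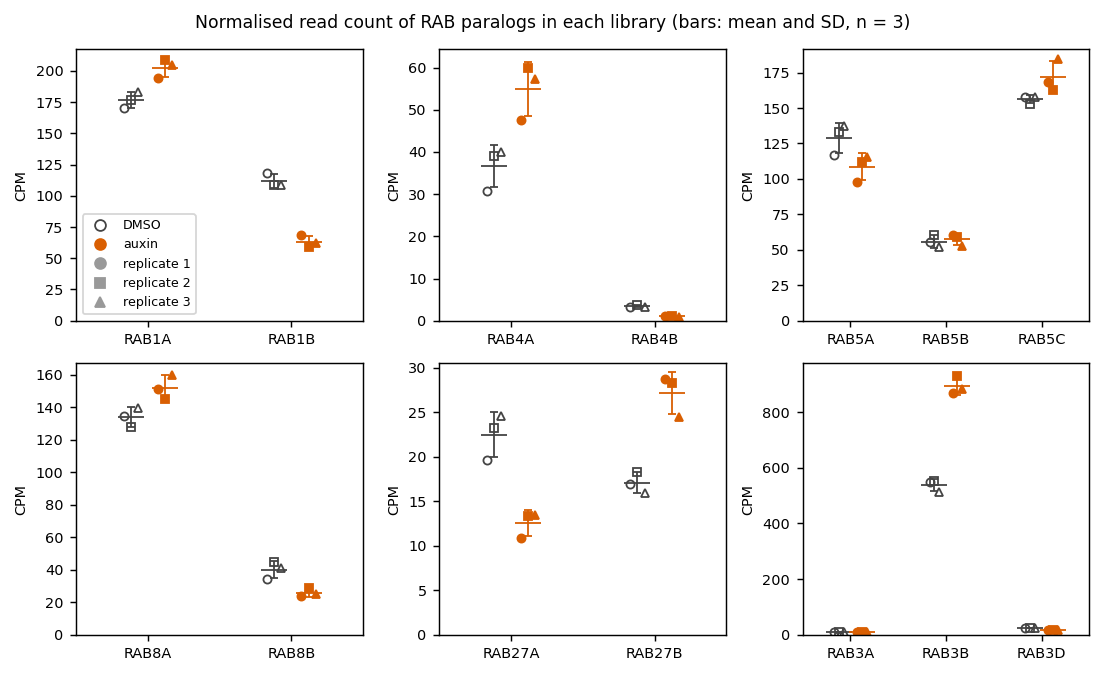
CPM (y axis, from 0) of RAB paralogs (x axis) in each DMSO library (open symbols) and auxin library (filled symbols), with the mean and SD of 3 libraries. RAB1B, RAB4B, RAB8B, RAB27A and RAB3D are lower in auxin while RAB1A, RAB4A, RAB8A, RAB27B and RAB3B are higher (RAB8A is at -0.01 on log2 TPM), and RAB5B overlaps between groups.

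Both members were tested in 17 paralog pairs, and the TPM ratio did not overlap between groups in 12 of them, or 70.6%. The share of single protein-coding genes whose CPM did not overlap, given above, was 68.1%, and nothing particular to the pairs is read from the count. In 16 of the 17 the ratio moved the same way in every replicate pair, the exception being RAB9A to RAB9B, where RAB9B is near 0. The largest shifts were RAB4A to RAB4B at 2.41 and RAB27A to RAB27B at -1.60, followed by RAB7A to RAB7B at -1.16 and RAB3B to RAB3D at 1.13 (all on the log2 scale, auxin minus DMSO). All 12 had an exact permutation p of 0.1 and an adjusted p of 0.14 over the 17 pairs. Pairs that share a member, such as those of RAB3, are not independent.

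**Figure D3:**
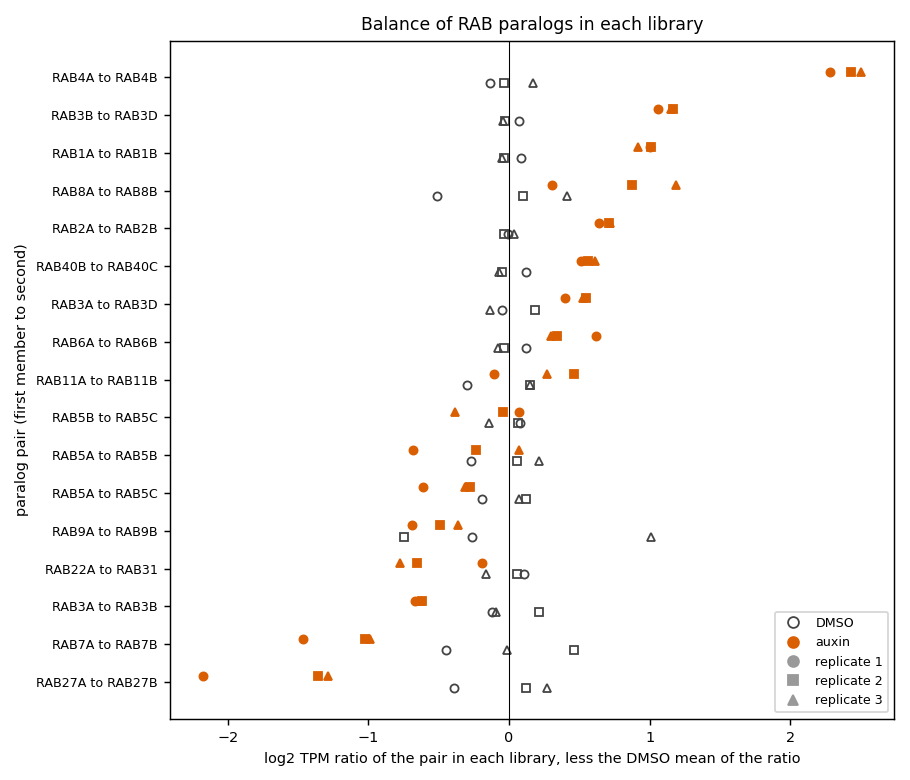
Log2 TPM ratio of each paralog pair (y axis) in each library, less the mean of the ratio in DMSO (x axis), with open symbols for DMSO and filled ones for auxin. RAB4A to RAB4B lies farthest to the right and RAB27A to RAB27B farthest to the left, and the ratios of 12 of the 17 pairs do not overlap between groups.

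Gene structure was set beside the changes, using the principal protein-coding transcript of each gene. Across all tested protein-coding genes, the fold change was lower where GC content was high. Genes were divided into 5 equal bins of each feature. The median log2 fold change was 0.11 in the bin with the lowest GC and -0.82 in the bin with the highest. The RAB genes had medians of 0.14 (17 genes) and -0.55 (7 genes) in those bins. In the highest bin, RAB24, RAB26 and RAB1B fell and RAB43, RAB11B, RAB40C and RAB3A were not called. Across the 52 RAB genes Spearman's rho between GC and fold change was -0.29 (Pearson's r = -0.39), and across 14003 protein-coding genes it was -0.36 (r = -0.41). These describe genes measured in the same libraries, which are not independent replicates.

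Intron length went the other way. The median log2 fold change of protein-coding genes was -0.23 in the bin with the shortest summed introns, up to 6.03 kb, and 0.10 in the bin with the longest, above 78.4 kb. RAB genes had medians of -0.44 (6 genes) and 0.10 (7 genes) there. In the longest bin RAB7A, RAB10 and RAB31 rose, RAB28 and RAB30 fell, and RAB2A and RAB6A were not called. Spearman's rho between log10 intron length and fold change was 0.25 across the RAB genes and 0.19 across protein-coding genes. Pearson's r was 0.24 and 0.11. With fold changes corrected for GC content rho was 0.09 and 0.05, and r was 0.19 and 0.0037. Little of the trend with intron length thus remained by rho, but across the RAB genes most of r did.

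Within paralog pairs, neither feature ordered the changes throughout. The member with the higher GC had the lower log2 fold change in 10 of 17 pairs, and the member with the longer introns had the higher one in 10 of 17. RAB4B has 56.5% GC and 13.2 kb of introns against 39.3% and 31.8 kb in RAB4A, and RAB1B has 61.1% and 6.95 kb against 38.3% and 40.8 kb in RAB1A. In both pairs the GC-rich, short member fell. RAB8 showed the opposite order, since RAB8B has 36.2% GC and 73.4 kb of introns, RAB8A has 54.1% and 19.8 kb, and RAB8B fell. RAB5 also ran against it: RAB5A has 42.0% GC and 35.6 kb of introns and the lowest fold change of the RAB5 genes, while RAB5B has 46.3% and 17.3 kb and RAB5C 55.8% and 28.2 kb. RAB27A and RAB27B, with 38.2% and 35.9% GC and 64.0 and 60.0 kb of introns, are alike in both features and moved in opposite directions.

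A correction of each library's counts for exonic GC changed the family's counts to 19 higher and 19 lower. It removes each library's trend with GC, and with it the difference between the groups along GC described above. A corrected value thus sets a gene against others of like GC, and a higher call does not mean that its RNA rose. The correction ended 3 calls, those of RAB1A, RAB1B and RAB7A, and added 8 higher and 4 lower ones. RAB4B at -1.31 (adjusted p = 0.00018) and RAB4A at 0.46 (adjusted p = 0.0063) kept their directions and calls. RAB5A was then called lower at -0.39 (adjusted p = 0.0027) and RAB5C called higher at 0.52 (adjusted p = 0.0021). RAB27A at -0.98 and RAB27B at 0.63 remained called. The other added higher calls were RAB11B and RAB40C (0.76, adjusted p = 0.00013), RAB20 (0.66, adjusted p = 0.045), RAB3A (0.66, adjusted p = 0.0092), RAB35 (0.45, adjusted p = 0.0036), RAB17 (0.38, adjusted p = 0.025) and RAB25 (0.20, adjusted p = 0.012). Of these RAB11B, RAB40C, RAB35, RAB17 and RAB25 had a fold change below 0 without the correction. The other added lower calls were RAB33B (-0.20), RAB14 (-0.19) and RAB6A (-0.17), with adjusted p of 0.041, 0.035 and 0.047.

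**Figure D4:**
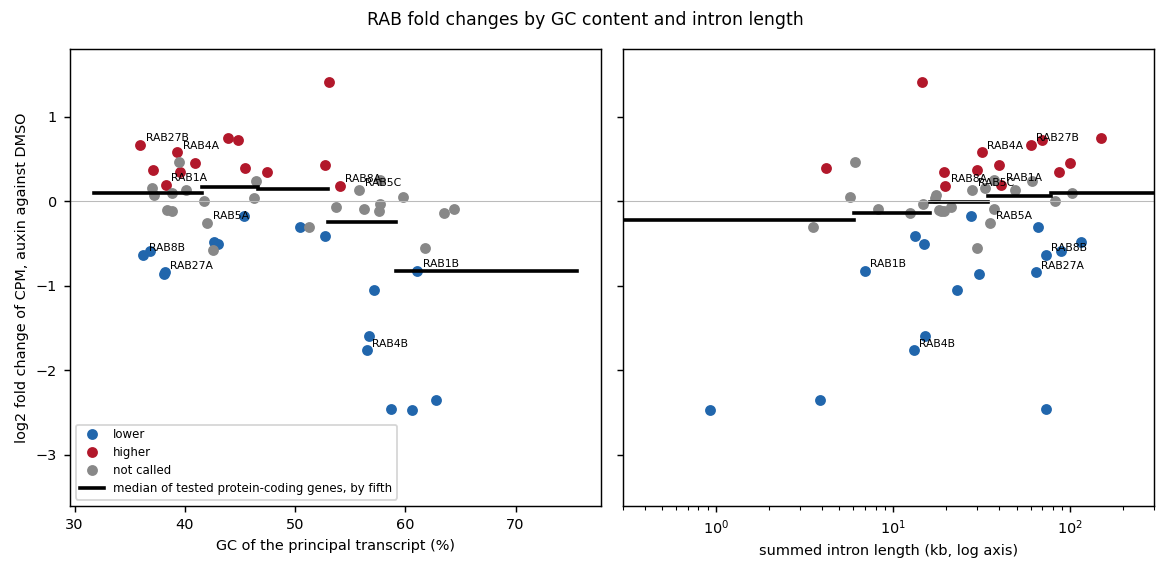
Log2 fold change of CPM, auxin against DMSO (y axis), by GC content of the principal transcript in percent (left) and by its summed intron length in kb on a log axis (right), with points for RAB genes coloured by call and black lines for the median of tested protein-coding genes in each of 5 bins. RAB4B and RAB1B are GC-rich and low, whereas RAB8B and RAB27A are GC-poor and low; RAB6D, which has no intron, is left out on the right.

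Transcript shares, the percent of a gene's TPM given to each transcript by the authors' model, could be tested for 103 transcripts of 33 RAB genes. Of these 18 in 10 genes changed, or 17.5%, against 20.3% of all tested transcripts. A transcript could enter the test through either group, and 9 of those called held under 5% of their gene on average in DMSO, so the directions are not counted. The test was limma on the log2 odds of the share. An edgeR test of transcript counts within genes, on transcripts that passed the same filter, called 2 of the 18, RAB36-202 and RAB35-202. The other calls thus depend on the method, and RAB36-202 was among the 9 that held under 5% in DMSO. Without DMSO replicate 1, 2 or 3 or auxin replicate 3, the share test called 10, 9, 8 and 10.

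RAB35, which recycles cargo from endosomes and shapes the actin cytoskeleton, had the largest change in a well-expressed gene. The gene itself was not called, at 89.6, 82.7 and 89.0 CPM in DMSO and 82.2, 76.9 and 82.8 CPM in auxin. The protein-coding transcript RAB35-202 held 19.5%, 12.7% and 11.3% of RAB35 in DMSO and 60.0%, 41.7% and 45.6% in auxin, without overlap (log2 odds 2.54 ± 0.36 SE, adjusted p = 0.004; edgeR adjusted p = 0.021). It lacks this coding exon of 125 bases of RAB35-201, at chr12:120098811-120098935, minus strand, shown because it sets RAB35-202 apart from RAB35-201.
RAB35-201 exon 5: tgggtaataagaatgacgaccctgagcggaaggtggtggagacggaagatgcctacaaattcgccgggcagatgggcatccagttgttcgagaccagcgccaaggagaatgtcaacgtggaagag
The full-length RAB35-201 held 42.8%, 41.6% and 42.9% in DMSO and 37.4%, 34.5% and 33.1% in auxin, without overlap, and was not called (adjusted p = 0.051, or 0.025 with the block). RAB35-204, annotated as a retained intron, held 37.7%, 45.7% and 45.8% in DMSO and 2.48%, 23.8% and 21.2% in auxin. Its share did not overlap between groups but was not called (limma adjusted p = 0.12, or 0.052 with the block). RAB35-202 and RAB35-204 together held 57.2%, 58.4% and 57.0% in DMSO and 62.5%, 65.5% and 66.8% in auxin, so most of the gain of the first was matched by the loss of the other. How reads were split between these transcripts rests on the authors' model, and the posterior SD of RAB35-202 was at most 0.446% of the gene's count.

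RAB36-201, the main transcript of RAB36, held 93.8%, 94.9% and 90.1% in DMSO and 72.6%, 70.4% and 72.7% in auxin (log2 odds -2.07 ± 0.23 SE, adjusted p = 0.002). RAB36-203 went from a mean share of 6.84% to 22.8% (log2 odds 1.79 ± 0.26 SE, adjusted p = 0.005). Its mean level was 0.19 TPM in DMSO and 0.23 TPM in auxin, while that of RAB36-201 went from 2.59 to 0.73 TPM. RAB36-202 went from at most 0.397% in DMSO to 7.26%, 3.70% and 5.05% in auxin, at no more than 0.09 TPM. It entered the test through the auxin libraries alone, with mean shares of 0.22% in DMSO and 5.34% in auxin. RAB18-203, of a RAB that acts at the endoplasmic reticulum and lipid droplets, held 5.36%, 5.72% and 5.26% in DMSO and 8.57%, 9.57% and 8.44% in auxin (log2 odds 0.74 ± 0.13 SE, adjusted p = 0.01). It carries this inner coding exon of 87 bases that RAB18-201 lacks, at chr10:27531529-27531615, plus strand.
RAB18-203 exon 5: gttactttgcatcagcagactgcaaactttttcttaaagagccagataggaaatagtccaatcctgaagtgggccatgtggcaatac
RAB4B-204, a retained intron, held 6.01%, 4.58% and 2.96% in DMSO and 10.6%, 8.60% and 7.87% in auxin while the gene fell. Its DMSO mean of 4.52% was under the minimum, so it entered through the auxin libraries alone. The edgeR test did not call it (adjusted p = 0.82). Its own level was lower on average but overlapped, at 0.28, 0.17 and 0.10 TPM in DMSO and 0.12, 0.08 and 0.07 TPM in auxin. RAB40B-210 held 7.22%, 6.72% and 3.91% in DMSO and 17.6%, 17.9% and 27.7% in auxin, at no more than 0.93 TPM. RAB30-211 also entered the test through the auxin libraries alone and was at no more than 0.26 TPM in any library. The retained intron RAB37-213, which entered in the same way, was at 0 in every DMSO library and in auxin replicate 2. Its groups thus overlap and its log2 odds depend on the pseudocount. Over the family, retained-intron transcripts held 7.82% ± 1.84 (SD, n = 3) of TPM in DMSO and 6.80% ± 2.29 (SD, n = 3) in auxin (two-sided exact permutation p = 0.5). By replicate number the values were 5.77%, 8.39% and 9.31% in DMSO and 4.16%, 7.91% and 8.32% in auxin. The groups overlapped, though auxin was the lower in each same-numbered pair.

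**Figure D5:**
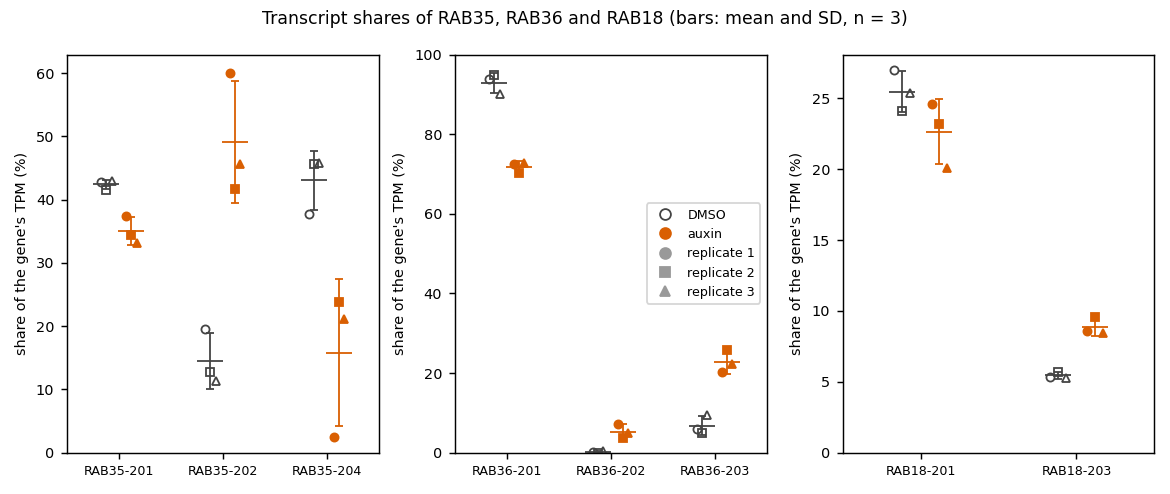
Share of the gene's TPM in percent (y axis) for transcripts of RAB35, RAB36 and RAB18 (x axis) in each library, with the mean and SD of 3 libraries per group. RAB35-202 and RAB18-203 are higher in every auxin library and RAB36-201 and RAB35-204 lower.

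The proteins that switch RABs and read their state were followed in a list of 141 genes, of which 138 were tested. In it 39 rose, or 28.3%, against 27.8% of tested protein-coding genes, and 53 fell, or 38.4%, against 33.4%. Of 42 GEFs and subunits of GEF complexes, 11 rose and 16 fell. Of 37 tested GAPs, 11 rose and 18 fell, and of 49 tested effectors 15 rose and 15 fell.

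Of the 10 genes that lipidate, escort or extract RABs, 2 rose and 4 fell, beside shares of 27.8% and 33.4% over tested protein-coding genes. RABGGTA, the alpha subunit of the prenyl transferase, went from 12.9 to 5.63 CPM (-1.20 ± 0.19 SE, adjusted p = 0.0017), and the beta subunit RABGGTB was at 95.9 and 99.1 CPM and was not called. Of the escort proteins, CHML rose by a log2 of 0.45 ± 0.07 (SE, adjusted p = 0.0012) and CHM was not called at 0.09 (adjusted p = 0.28, or 0.032 with the block). RABGGTA and CHML lost their calls in other fits, with adjusted p-values up to 0.78 and 0.48.

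The falls of GOLGA2, TBC1D10A and MICALL2 were larger than that of any tested RAB. GOLGA2, the Golgi tether GM130 and an effector of RAB1, was at 32.7, 36.6 and 35.3 CPM in DMSO and 3.96, 3.24 and 3.29 CPM in auxin (-3.31 ± 0.11 SE, adjusted p = 2.0e-06). TBC1D10A, a GAP, was at 8.83, 8.44 and 7.79 CPM in DMSO and 1.15, 0.879 and 0.808 CPM in auxin (-3.13 ± 0.16 SE). MICALL2, an effector of RAB8 and RAB13, was at 13.6, 8.33 and 8.09 CPM in DMSO and 1.69, 0.904 and 0.993 CPM in auxin (-3.05 ± 0.32 SE). RILPL1, which binds RAB8 and RAB10 after LRRK2 phosphorylates them, was at 8.08, 8.87 and 7.45 CPM in DMSO and 19.5, 20.9 and 21.9 CPM in auxin (1.35 ± 0.09 SE). SYTL3, an effector of RAB27, was at 31.9, 28.0 and 33.04 CPM in DMSO and 68.7, 62.7 and 67.7 CPM in auxin (1.10 ± 0.08 SE). TBC1D30, a GAP, was at 40.5, 39.0 and 42.6 CPM in DMSO and 82.1, 86.2 and 90.9 CPM in auxin (1.09 ± 0.06 SE). All 6 were called in every fit tried.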

How the data were processed

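All 6 libraries were used, 3 per group. Per the submitters' processing notes, the tools were bcl2fastq 2.20, STAR and DESeq2, and the builds GRCh38 and hg38; the role and settings of each are not given in the sources used here. Per the labels' protocols, RNA was depleted of ribosomal RNA and libraries were made with a stranded kit. Per the file headers, the deposited tables give, per gene and transcript, an expected count (estimated reads, not normalized), the TPM and a posterior SD of the count.

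The 58780 gene entries that matched GENCODE release 29 were kept, and the 746 entries that did not match it were left out. Expected counts were rounded, filtered with filterByExpr, scaled by TMM and tested by edgeR 4.0.16 (quasi-likelihood, R 4.3.3) over all 19725 genes passing, with Benjamini-Hochberg adjustment. Adjusted p-values in the report are edgeR's unless named. Transcript shares were tested with limma 3.58.1 on log2 odds (pseudocount 0.1 TPM) for transcripts with at least 5% of a gene of at least 1 TPM. Ratios and sums used two-sided exact permutation tests over 20 assignments. The fits were tested on simulated data. Alternatives were DESeq2 1.42.0, other scalings and filters, log2 TPM, GC-corrected offsets (lowess), a replicate block and libraries left out.

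Replicate numbers come from the labels. Deviations from group means correlated at 0.65, 0.27 and 0.28 between the same-numbered libraries of replicates 1, 2 and 3. Libraries of different number were not compared, and replicate 1 was the deepest in both groups, so these values cannot show that the numbers pair the samples. The pairing is therefore an assumption, on which the block and the values within same-numbered pairs rest. Blocked values stand where they change a call.

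The members and lists were chosen with earlier results of these data known. Values are given for RAB5A, RAB5B and RAB5C, for both members of each tested paralog pair, and for the 5 largest rises and falls among called RAB genes of at least 1 CPM. The rule also took the 3 largest of each among regulators and up to 8 transcripts by adjusted p, at most 1 rising and 1 falling per gene. Other genes were named after their values were seen. GC of introns was not analysed here. Some items of the lists are not reported here.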

Additional observations from a re-analysis of the deposited data

How the results depend on the processing

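Counts of calls differed between fits, and the TPM fits changed both the measure and the test. RAB genes called higher numbered 13, against 0 on log2(TPM + 1) and 0 on log2(TPM + 0.1), 4 on TPM of protein-coding transcripts alone (chosen after seeing the data), 20 with the replicate block and 21 with the block and GC-corrected offsets. Regulators called higher numbered 39, against 7 in both TPM fits and 10 with protein-coding transcripts alone, and those called lower 53, against 25 on log2(TPM + 1) and 29 on log2(TPM + 0.1). The median RAB log2 fold change of -0.08 was 0.045 with upper-quartile factors, -0.17 with library size only, -0.17 and -0.20 in the TPM fits, 0.0144 after GC correction and 0.0143 with the block added, and -0.18 with protein-coding transcripts alone. Transcripts with a changed share numbered 18, against 9 at a minimum share of 10% and 2 with edgeR. The summed TPM differed by -70.7 (auxin minus DMSO), but by 634 in CPM. Leaving out 1 library at a time gave 10 to 14 RAB genes higher, 14 to 17 lower, medians of -0.11 to -0.025, 8 to 15 transcripts, 32 to 41 regulators higher and 41 to 55 lower. The summed TPM then differed by -183.9 to 124.5, turning sign without DMSO replicate 1 and without auxin replicate 2 (10.7). RAB5B to RAB5C ranged from -0.21 to 0.013, turning sign without auxin replicate 3, and RAB5A to RAB5B ranged from -0.46 to -0.08. Among named genes, RAB11B (0.57) and RAB40C (0.76, or 0.77 with the block) turned to higher calls and RAB6A (-0.17) to a lower call under GC correction with and without the block, RAB35 (0.45), RAB17 (0.38), RAB25 (0.20), RAB3A (0.66) and RAB20 (0.66) were also called higher under it, RAB5B (-0.12) was called lower under both together, and RAB8A was at -0.0102 on log2(TPM + 1) and -0.0105 on log2(TPM + 0.1). The cause was not tested. The replicate block ended no RAB call and added 14, and in the sign-flip test 3 pairs allow no p below 0.25. The 11 untested members had at most 29 expected counts in any library, so changes in them were not detectable at this depth.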
